A study of Mus musculus with 8 samples.

Results

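Krüppel-like factors are zinc-finger proteins that bind GC-rich and CACCC-type sequences in promoters and enhancers. Each ends in a conserved DNA-binding region of zinc fingers, and the rest of the protein differs between members and recruits coactivators or corepressors. Klf2 is the best known of them in the thymus, where it drives the genes that let mature T cells leave. The 8 genes described here are the listed family members other than Klf2, namely Klf3, Klf4, Klf6, Klf7, Klf9, Klf10, Klf12 and Klf13. They were chosen by name, and all 8 are among the 23420 gene symbols in the count files.

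The samples were thymocytes (immature T cells) of wild-type mice from the strains that the library names call B6 and BALB. The sources used here give no substrain, age or treatment. DP thymocytes, the CD4+ CD8+ cells that rearrange the alpha chain gene of their receptor, were sorted as lacking CD69 and binding little or moderate H57, which recognises the beta chain. Whole thymocytes are a mix of all stages with a few other cells of the organ. There were 2 libraries in each of the 4 groups, 8 in all, and the labels do not say whether these came from separate mice, so p-values measure the spread between libraries, which may be technical.

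The libraries held 2632083 to 5974684 counts in genes, and 1 count was worth 0.175 to 0.388 CPM (counts scaled to a common library total). The BALB DP pair differed most from each other, with 18.2 times the variation of counting noise (chi-square per degree of freedom) against 1.62 to 4.35 in the other groups, and BALB DP replicate 1 had the lowest share of counts in the ribosomal precursor gene Rn45s, 3.14%. BALB whole replicate 1 had 12313 counts of the female-expressed Xist and 0 of the Y-linked Ddx3y, while BALB whole replicate 2 had 203 and 725, so the sex of the source differed within this pair. The other 6 libraries had 6 to 24 counts of Xist and 444 to 1177 of Ddx3y. Summed levels of 10 DP marker genes ran from 19993 to 20942 CPM in B6 DP, from 12277 to 12849 in B6 whole, from 12887 to 13025 in BALB DP and from 8948 to 9550 in BALB whole libraries. In DP libraries 10 mature thymocyte markers summed to at most 102 CPM, against at least 493 in whole libraries.

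The zinc-finger coding parts of the family resemble each other, which could let reads be shared between members. The 4 longest identical coding stretches between a member and another family gene are shown because they bound that sharing. They come from the coding parts of GENCODE M21 transcripts (GRCm38).
Klf6 and Klf7: gacaggtgtttctccaggtctgacca
Klf9 and Klf5: tcggatgagctgacccgccactac
Klf13 and Klf1: tcgcacctcaaggcgcacctg
Klf7 and Klf2: cacacaggtgagaagcctta
The stretch common to Klf6 and Klf7 has 26 bases and is the longest of the 172 pairs compared, and the 28 pairs among the 8 genes range from 9 to 26 bases. A read longer than this that lies in these coding sequences therefore differs in at least 1 base between any pair. The library kit does not keep the strand, and 3196 of the 8131 exon bases of Klf7 lie on the lincRNA gene Gm26649 of the other strand, so reads of the pair cannot be told apart. Of the 11243 exon bases of Klf3, 404 lie on Gm20033 in the same way.

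Klf3, Klf6 and Klf13 were all lower in B6 whole than in B6 DP thymocytes, and the 100 bases just upstream of their annotated starts are shown for that reason. They were read from RefSeq's GRCm38.p6 sequence, which held an entry for 7 of the 8 genes. Capitals mark the letters CACCC and GGGCGG, the CACCC and GC boxes that factors of this family bind, on either strand. Matches may overlap.
Klf3, chr5:64803288-64803387, plus strand: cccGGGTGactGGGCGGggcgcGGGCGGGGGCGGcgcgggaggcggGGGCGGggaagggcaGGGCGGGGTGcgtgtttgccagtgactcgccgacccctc
Klf6, chr13:5861382-5861481, plus strand: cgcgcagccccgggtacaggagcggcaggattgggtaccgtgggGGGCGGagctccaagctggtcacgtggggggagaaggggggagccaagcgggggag
Klf13, chr7:63938916-63939015, minus strand: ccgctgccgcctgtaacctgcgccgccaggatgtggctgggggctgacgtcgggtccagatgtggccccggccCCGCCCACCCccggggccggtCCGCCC
Klf3 has 2 matches of CACCC and 5 of GGGCGG, Klf13 has 1 and 2, and Klf6 has 1 of GGGCGG and none of CACCC. Klf4, which was called lower in BALB whole thymocytes, has none of either, and Klf9 has 1 of CACCC. Klf7 and Klf12 have none either, but their windows lie upstream of a RefSeq start within the gene positions given below. The bases upstream of their outermost annotated starts were not read. Any link of these matches to the differences was not tested. Among 32108 promoter windows of this length 27.2% hold CACCC, 24.1% hold GGGCGG and 7.88% hold both. A match describes these letters and is not evidence of a bound site.

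Klf13 was the most abundant member in every library. Its protein was described as a late activator of the chemokine gene Ccl5 in T cells, and its gene lies on chromosome 7, 63886351 to 63938915, minus strand (all positions in mm10). RPKM is CPM per kilobase of exon, with all annotated exons of a gene merged, and is used here to compare genes. In RPKM the level of Klf13 ran from 60.5 to 104, against a highest value of 23.1 for any other member. Klf13 made up 59.1% to 66.2% of the counts of the 8 genes in a library, with 95% exact binomial limits for single libraries between 57.7% and 67.7%, which cover counting error only. Klf6, Klf3, Klf10 and Klf7 formed a middle range and Klf4, Klf12 and Klf9 a low one.

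The order within the middle range depended on the group and on the merged exon length. In CPM Klf3, at a mean of 202, lay above Klf6, at 89.7, in B6 DP thymocytes. Which transcript forms were expressed was not tested. In B6 DP thymocytes the mean RPKM was 20.4 ± 0.17 (SD, n = 2) for Klf6, 18.0 ± 0.75 for Klf3, 13.4 ± 1.15 for Klf10 and 6.92 ± 1.01 for Klf7, and no neighbours overlapped between libraries. In BALB DP thymocytes Klf10 came first of these at 22.1 ± 1.39, ahead of Klf6 at 19.4 ± 0.40 and Klf3 at 11.4 ± 0.78. BALB whole thymocytes gave the same order, with Klf10 at 18.5 ± 0.43, Klf6 at 13.2 ± 0.073 and Klf3 at 9.05 ± 0.44. In B6 whole thymocytes Klf10 at 13.5 ± 1.64 and Klf3 at 13.2 ± 0.97 overlapped. In RPKM Klf7 was last of the 4 in every group.

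**Figure D1:**
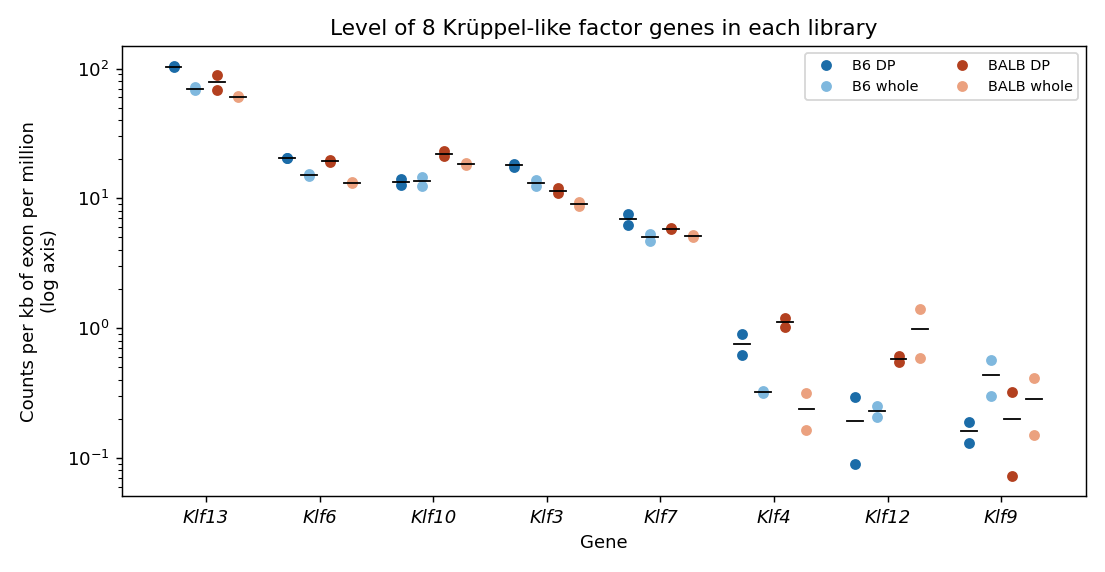
Level of each of the 8 genes in RPKM on a log axis, with points for libraries, black bars for means of 2 libraries and colours for the 4 groups. Klf13 lies above all others, at 60.5 to 104, and Klf4, Klf9 and Klf12 lie below 1.5 in every library.

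Klf9, Klf4 and Klf12 were at the edge of detection. Klf9, a gene induced by glucocorticoids and thyroid hormone in many tissues, had 2 and 4 counts in the B6 DP libraries, 11 and 6 in B6 whole, 2 and 4 in BALB DP and 3 and 8 in BALB whole. It did not pass the filter on low counts, so 7 of the 8 genes were tested. Its summed level in B6 whole libraries was 2.08 CPM (95% exact Poisson interval 1.21 to 3.34, counting error only) and in B6 DP libraries 0.792 (0.291 to 1.72). Without the filter its log2 fold change of whole over DP was 1.38 ± 0.79 in B6 and 0.83 ± 0.86 in BALB (edgeR adjusted p = 0.358 and 0.623), so no difference was detectable at this depth.

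The comparison of BALB with B6 asks which transcripts differ between the strains within sorted DP or within whole thymocytes, the latter a mix of stages. In sorted DP thymocytes 1 of the 7 tested members was higher in BALB, Klf10, and 2 were lower, Klf3 and Klf13. Over all genes tested 13.0% were called in that comparison, 6.85% higher and 6.14% lower, by edgeR's quasi-likelihood test at a Benjamini-Hochberg adjusted p under 0.05. All 7 members had libraries that did not overlap between the strains, as did 52.2% of all genes tested. The median log2 fold change was −0.076 over the 7 members and 0.0028 over all genes. Of the 10 DP marker genes 5 were lower in BALB in DP and 5 in whole thymocytes, with medians of −0.37 and −0.32, where 6.14% and 2.61% of all genes were lower, and their part in the strain differences was not tested.

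Klf3, which represses through the corepressor CtBP (chromosome 5, 64803388 to 64832901, plus strand), was lower in BALB in both populations. It stood at 196 and 208 CPM in B6 DP libraries and at 122 and 135 in BALB DP libraries. Both BALB values were lower than both B6 values. The log2 fold change was −0.66 ± 0.11 (SE; edgeR adjusted p = 0.00253). It stayed called under all 15 alternatives, at −0.71 to −0.59 and an adjusted p of at most 0.0483 by edgeR, DESeq2 or limma.

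In whole thymocytes Klf3 was at 156 and 141 CPM in B6 and at 98.2 and 105 in BALB. The groups again did not overlap, and the log2 fold change was −0.55 ± 0.11 (edgeR adjusted p = 0.0136). Klf3 was the only member called between strains in whole thymocytes, 1 lower of 7 tested, where 4.59% of all genes were called (1.98% higher, 2.61% lower) and 48.6% did not overlap, as against 6 of the 7 members. No member was called higher there by edgeR, DESeq2 or limma-voom, and 2 were higher at an unadjusted edgeR p under 0.05. The median log2 fold change of the 7 tested members was −0.19, beside 0.018 over all genes. Without B6 whole replicate 1 or 2 the edgeR adjusted p of Klf3 was 0.225 or 0.0723, and without BALB whole replicate 1 or 2 it was 0.137 or 0.0701. The strain difference of Klf3 did not differ detectably between whole and DP thymocytes, with an interaction of 0.11 on the log2 scale (95% interval −0.23 to 0.45; edgeR adjusted p = 0.844).

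Klf12, a repressor of the same CtBP-binding branch (chromosome 14, 99870632 to 100284679, minus strand), had higher values in BALB that did not pass the test. Its raw counts were 2 and 9 in B6 DP, 7 and 6 in B6 whole, 22 and 11 in BALB DP and 17 and 39 in BALB whole libraries. All 4 BALB libraries, at 3.85 to 9.70 CPM, lay above all 4 B6 libraries, at 0.627 to 2.05 CPM. The log2 fold change of BALB over B6 was 1.46 ± 0.61 in DP (edgeR adjusted p = 0.140) and 2.09 ± 0.54 in whole thymocytes (edgeR adjusted p = 0.0505), and neither passed. Under 6 of 14 alternatives the value in whole thymocytes did pass, with adjusted p from 0.000421 to 0.471 over the tools run. In CPM the BALB whole libraries differed from each other by more than the B6 whole ones, 6.90 ± 3.97 (SD, n = 2) against 1.60 ± 0.21. Relative to its mean the B6 DP pair, at 1.34 ± 1.01 CPM, differed more than the BALB whole pair. The BALB whole libraries are the pair that differed in Xist and Ddx3y, and the part of sex in their spread was not tested.

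Klf8, the third gene of this branch and not one of the 8, was called in neither strain comparison. It held 2 to 19 counts per library, and its log2 fold change of BALB over B6 was 0.85 ± 0.69 in DP and 1.04 ± 0.59 in whole thymocytes (edgeR adjusted p = 0.453 and 0.500).

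Klf10, also known as TIEG1 from its induction by TGF-beta (chromosome 15, 38291463 to 38300706, minus strand), was the member that was higher in BALB. It was at 59.2 and 52.5 CPM in B6 DP and at 96.6 and 88.4 in BALB DP libraries, with no overlap. The log2 fold change was 0.74 ± 0.13 (edgeR adjusted p = 0.00434), and without B6 DP replicate 2 it was 0.66 and the adjusted p was 0.0752. In whole thymocytes the libraries held 51.6 and 61.3 CPM in B6 and 75.8 and 78.4 in BALB, again apart. There the log2 fold change of 0.45 ± 0.13 did not pass (edgeR adjusted p = 0.0935). It passed with only the 4 whole libraries in the fit, at 0.43 and an adjusted p of 0.0262, and without BALB DP replicate 1 or 2, at 0.0275 or 0.0271. The difference between the strain effects was −0.29 on the log2 scale (95% interval −0.70 to 0.13; edgeR adjusted p = 0.608).

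Klf11, the nearest relative of Klf10 and outside the 8 genes, was called higher in BALB in whole and not in DP thymocytes, and the difference between these was not called (0.62 ± 0.43, edgeR adjusted p = 0.623). It was at 5.95 and 5.93 CPM in B6 DP and at 10.1 in each BALB DP library, a log2 fold change of 0.76 ± 0.29 (edgeR adjusted p = 0.103). In whole thymocytes it was at 4.24 and 3.14 CPM in B6 and 8.19 and 11.2 in BALB, 1.39 ± 0.31 (edgeR adjusted p = 0.0231). DESeq2's Wald test called none of the 9 tested genes among the other Klf and Sp family members in that comparison, and edgeR and limma-voom called 1 each. By edgeR 4.59% of all genes were called there.

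Among 12 TGF-beta pathway and response genes, all tested, 1 was higher and 1 lower in BALB DP thymocytes by edgeR, a share near the 13.0% of all genes. Tgfbr2, the ligand-binding receptor chain, had a log2 fold change of 0.53 ± 0.12 (adjusted p = 0.0138), and Smad4, the common signal mediator, of −0.48 ± 0.11 (adjusted p = 0.0167). The median of the 12 genes was −0.044, beside 0.0028 over all genes. In whole thymocytes Tgfbr2 was the 1 gene called higher (0.46 ± 0.12, edgeR adjusted p = 0.0428), and the list's median was 0.18, beside 0.018 over all genes. DESeq2 called 0 of the 12 there, and 4.59% of all genes were called by edgeR.

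Klf13 was lower in BALB DP thymocytes. The libraries held 782 and 773 CPM in B6 DP and 518 and 673 in BALB DP. Both BALB libraries lay below both B6 ones, but they differed from each other, 595 ± 110 CPM (SD, n = 2), more than any other group's pair. The log2 fold change was −0.39 ± 0.12, just past the threshold (edgeR adjusted p = 0.0481). DESeq2's Wald test gave an adjusted p of 0.0631 and the edgeR fit with a replicate block 0.0591. Without BALB DP replicate 1 the value was −0.21 (adjusted p = 0.112), and without BALB DP replicate 2 it was −0.57 (adjusted p = 4.12e-05). Leaving out any of the other 6 libraries also ended the call, at adjusted p from 0.0746 to 0.195.

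In whole thymocytes Klf13 was at 540 and 516 CPM in B6 and 458 and 456 in BALB, with no overlap. The log2 fold change of −0.21 ± 0.12 did not pass (edgeR adjusted p = 0.495). It passed without BALB DP replicate 1 or 2, at an adjusted p of 0.0334 or 0.0323. The interaction was 0.18 (95% interval −0.18 to 0.54; edgeR adjusted p = 0.719). It was −0.014 without BALB DP replicate 1 and 0.34 without BALB DP replicate 2. Each of these fits leaves 1 library in BALB DP.

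Klf6, Klf7 and Klf4, which carry acidic activation domains at the other end of the protein, were called in neither strain comparison. Klf6 (chromosome 13, 5861482 to 5870394, plus strand), a growth-restraining factor in many cell types, was at 90.3 and 89.2 CPM in B6 DP and 84.0 and 86.4 in BALB DP libraries. Its log2 fold change of −0.076 had a 95% interval of −0.32 to 0.17. Klf7 (chromosome 1, 64029447 to 64122282, minus strand), best known from neurons, gave −0.25 in DP (−0.58 to 0.072) and 0.033 in whole thymocytes (−0.30 to 0.36). Klf4 (chromosome 4, 55527143 to 55532466, minus strand), a reprogramming factor that restrains T cell proliferation, had 6 and 12 counts in B6 DP and 21 and 8 in BALB DP libraries, and its interval of −0.42 to 1.51 leaves a wide range.

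**Figure D2:**
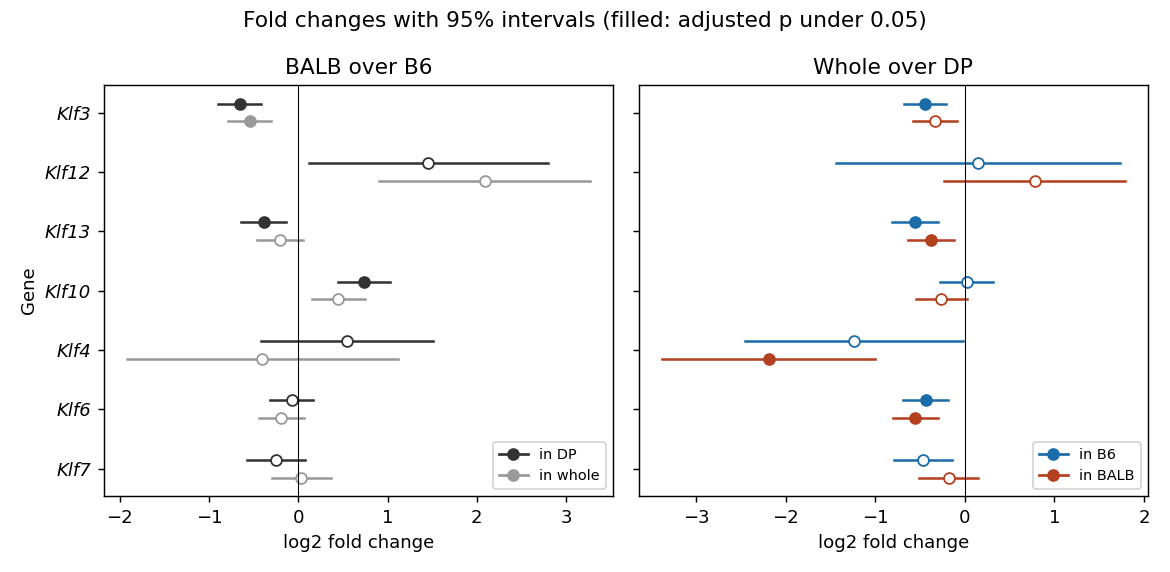
Log2 fold changes of the 7 tested genes with 95% intervals, BALB over B6 on the left and whole over DP thymocytes on the right, with filled points for an edgeR adjusted p under 0.05. Klf3 and Klf10 lie on opposite sides of 0 between strains, and Klf3, Klf6, Klf13 and Klf4 have their called values below 0 between populations.

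The comparison of whole with sorted DP thymocytes asks how transcripts of the sorted stage differ from those of the unsorted organ. Only the DP cells were sorted, so effects of sorting and of stage cannot be told apart. In bulk samples fewer cells of a type and less RNA per cell cannot be told apart. In B6, 3 of the 7 tested members were lower in whole thymocytes, Klf3, Klf6 and Klf13. Over all genes 10.2% were called (3.27% lower, 6.89% higher), and 61.4% did not overlap between the groups, as against 5 of the 7 members. By edgeR no member was called higher at the adjusted or at an unadjusted p under 0.05, and DESeq2 and limma-voom called 0 as well. The median log2 fold change was −0.44 over the 7 members and 0.0023 over all genes.

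Klf13 fell from 782 and 773 CPM in B6 DP to 540 and 516 in B6 whole libraries, by 0.56 on the log2 scale with an SE of 0.12 (edgeR adjusted p = 0.0102). Klf6 went from 90.3 and 89.2 to 65.1 and 67.3 CPM, −0.44 ± 0.11 (edgeR adjusted p = 0.0303). Klf3 went from 196 and 208 to 156 and 141 CPM, −0.44 ± 0.11 (edgeR adjusted p = 0.0234). The libraries of the populations did not overlap for any of these genes. All 3 calls ended when any 1 of the 4 B6 libraries was left out, with edgeR adjusted p of 0.103 to 0.247 for Klf3, 0.175 to 0.238 for Klf6 and 0.0760 to 0.113 for Klf13, while the log2 fold changes stayed between −0.60 and −0.37. With DESeq2's Wald test only Klf13 was called, 1 in place of 3.

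Klf7 was at 50.5 and 62.0 CPM in B6 DP and 38.4 and 43.4 in B6 whole libraries, apart but not called (−0.46 ± 0.15, edgeR adjusted p = 0.0744). With only the 4 B6 libraries in the fit it passed at an adjusted p of 0.0196, and without BALB DP replicate 1 or 2 at 0.0253 or 0.0254. Klf10 overlapped between the populations, 0.021 ± 0.14 (95% interval −0.28 to 0.32). Klf12 had a log2 fold change of 0.15 ± 0.72.

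In BALB, 3 of 7 members were lower in whole thymocytes, Klf4, Klf6 and Klf13. The background was 17.2% of genes called (6.59% lower, 10.6% higher), and 52.8% of genes did not overlap, beside 6 of the 7 members. No member was called higher by edgeR, with 0 also at an unadjusted p under 0.05 and by DESeq2 and limma-voom. The members' median was −0.33 and that of all genes −0.0042.

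Klf6, as in B6, was lower in BALB whole thymocytes. It was at 84.0 and 86.4 CPM in DP and at 57.8 and 58.2 in whole libraries. The groups lay far apart relative to their own spread, and the log2 fold change was −0.55 ± 0.11 (edgeR adjusted p = 0.00665). It remained called when each of the 8 libraries was left out, at an adjusted p of at most 0.0443, but not with only the 4 BALB libraries in the fit (0.0608).

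Klf4 had 21 and 8 counts in BALB DP and 4 and 2 in BALB whole libraries, or 3.67 and 3.10 CPM against 0.963 and 0.498. Klf4 was higher in both sorted libraries, with a log2 fold change of −2.19 ± 0.54 for whole over DP (edgeR adjusted p = 0.0169). DESeq2's Wald test gave an adjusted p of 0.137. Without BALB DP replicate 1, BALB whole replicate 1 or BALB whole replicate 2 the edgeR adjusted p was 0.135, 0.0587 or 0.130. In B6, with 6 and 12 counts in DP and 4 and 4 in whole libraries, Klf4 gave −1.24 ± 0.56 (edgeR adjusted p = 0.199), and the interaction of −0.95 had a 95% interval of −2.76 to 0.86.

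Klf4 is also made by cells other than thymocytes, such as epithelial and myeloid cells, and their part in the Klf4 values was not tested. The 12 myeloid and dendritic cell markers summed to 55.0 to 61.7 CPM in BALB DP and to 291 to 307 in BALB whole libraries. The 10 thymic epithelial markers summed to 74.5 to 76.4 and to 162 to 189 CPM, with Krt14, Foxn1, Prss16 and Aire at 0 in the BALB DP libraries.

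Klf13 in BALB stood at 518 and 673 CPM in DP and 458 and 456 in whole libraries. The log2 fold change of −0.38 ± 0.12 was close to the threshold (edgeR adjusted p = 0.0457). It was −0.56 without BALB DP replicate 1 and −0.20 without BALB DP replicate 2, called both times, while leaving out any of the other 6 libraries ended the call (adjusted p from 0.0637 to 0.161). The replicate block gave 0.0599, limma-voom 0.0538 and DESeq2 0.0712 as adjusted p. Klf3 at 122 and 135 CPM in DP and 98.2 and 105 in whole libraries missed the threshold, −0.33 ± 0.11 (edgeR adjusted p = 0.0626), and passed without BALB DP replicate 1 (0.0252) or 2 (0.0433). Klf10 gave −0.26 ± 0.13 (edgeR adjusted p = 0.190) and passed without BALB DP replicate 2 (0.0441). More members were called lower without BALB DP replicate 2. That fit leaves 1 library in the group, and calls over all genes rose in it as well.

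The level of DP cells' own genes moved with these differences. Of the 10 DP marker genes 7 were called lower in whole thymocytes in each strain, with a median log2 fold change of −0.51 in B6 and −0.39 in BALB, beside −0.44 and −0.33 for the 7 members. Over all genes 3.27% and 6.59% were lower. Rag1, which encodes a subunit of the receptor gene recombinase, changed by −0.88 ± 0.076 in B6 and −0.52 ± 0.076 in BALB (edgeR adjusted p = 3.17e-05 and 0.000761). The 10 mature thymocyte markers had medians of 4.73 and 5.69. The part of stage composition in the members' differences was not tested.

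Klf2, the family member left out of the set, went the opposite way. It had 18 and 17 counts in B6 DP and 96 and 87 in B6 whole libraries, and 20 and 10 in BALB DP and 127 and 136 in BALB whole libraries. Klf2 rose by 2.27 ± 0.24 on the log2 scale in B6 and by 3.14 ± 0.24 in BALB (edgeR adjusted p = 0.000149 and 6.92e-06). Its mean was 12.2 RPKM in B6 whole thymocytes, next below Klf3, and 17.4 in BALB whole thymocytes, between Klf10 and Klf6, while at 2.58 RPKM in B6 DP thymocytes it lay below Klf7. Of the 12 genes linked to Klf2 in mature thymocytes, Klf2 itself included, 11 were tested, and 7 rose in B6 and 11 in BALB whole thymocytes by edgeR, with medians of 2.27 and 3.14. Over all genes 6.89% and 10.6% were higher. S1pr1, the receptor that guides thymic exit, rose by 7.38 ± 0.45 in BALB (edgeR adjusted p = 2.73e-06).

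**Figure D3:**
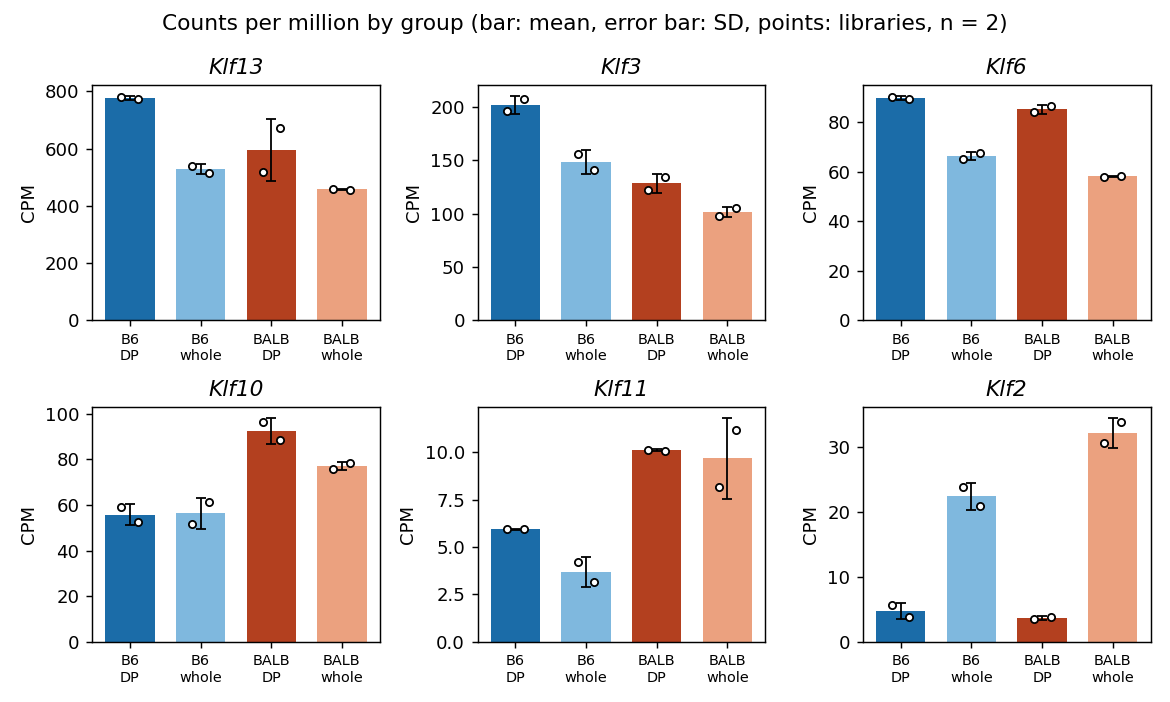
CPM of 6 family genes in the 4 groups, with bars for means, error bars for SD and points for the 2 libraries, each panel on its own linear axis from 0. Mean CPM of Klf13, Klf3 and Klf6 is lower in whole than in DP thymocytes (not called for Klf3 in BALB), that of Klf10 and Klf11 is higher in BALB (not called for Klf10 in whole or Klf11 in DP thymocytes), and that of Klf2 is higher in whole thymocytes.

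No member was called in the interaction of strain and population, where 0.123% of all genes were called by edgeR (0.105% higher, 0.0175% lower). At an unadjusted p under 0.05 the count of members was also 0, and DESeq2 and limma-voom called 0. The largest interaction estimates were those of Klf4 and of Klf12 (0.63, 95% interval −1.28 to 2.54), the members with the fewest counts among those tested, so their intervals are wide. For Klf6 the estimate was −0.11 with an interval of −0.47 to 0.24.

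Of 16 corepressors and coactivators that work with these factors, all tested, 1 was higher and 1 lower in BALB DP thymocytes by edgeR, a share near the 13.0% of all genes. Sin3b, a scaffold of histone deacetylase complexes, was lower there (−0.54 ± 0.10, edgeR adjusted p = 0.00479). In BALB whole thymocytes it was the 1 gene called, also lower (−0.40 ± 0.10, edgeR adjusted p = 0.0446), beside 4.59% of all genes. Sap30, a subunit of that complex, was higher in BALB DP (0.94 ± 0.24, edgeR adjusted p = 0.0250). In B6 the acetyltransferase genes Crebbp (−0.43 ± 0.090) and Ep300 (−0.40 ± 0.094) were the 2 called, lower in whole thymocytes (edgeR adjusted p = 0.0102 and 0.0202). Over all genes 10.2% were called there, and limma-voom called 5 of the 16 lower. In BALB the 1 gene called was Kat2a, another acetyltransferase gene, higher at 0.75 ± 0.17 (edgeR adjusted p = 0.00927). By edgeR 17.2% of all genes were called in that comparison. The medians of the 16 genes lay between −0.19 and −0.0057 in the 4 comparisons, and those of all genes between −0.0042 and 0.018.

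Of 11 glucocorticoid response genes, all tested, 5 were lower in whole thymocytes in B6 and 4 in BALB, where 3.27% and 6.59% of all genes were lower. DESeq2 called 4 and 2 of them lower. None was called higher by edgeR, DESeq2 or limma-voom (at an unadjusted p under 0.05, 0 in B6 and 1 in BALB by edgeR). Tsc22d3, a glucocorticoid-induced inhibitor of inflammation, was lower in B6 whole (−0.77 ± 0.15, edgeR adjusted p = 0.00813) and in BALB DP over B6 DP thymocytes (−0.72 ± 0.15, edgeR adjusted p = 0.00997). The list's medians were −0.41 in B6 and −0.35 in BALB for whole over DP thymocytes, beside 0.0023 and −0.0042 over all genes. Klf9, itself a glucocorticoid-induced gene, was too low to set beside them.

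Of the 15 genes induced early by the T cell receptor 13 were tested, and by edgeR 6 were higher and 2 lower in whole thymocytes in B6 and 6 and 3 in BALB, with medians of 0.55 and 0.24. Over all genes 6.89% were higher and 3.27% lower in B6 and 10.6% and 6.59% in BALB, with medians of 0.0023 and −0.0042. Among the list's called genes Jun had the smallest adjusted p in each strain, and it was lower in whole thymocytes. Its log2 fold change was −4.08 ± 0.24 in B6 and −4.26 ± 0.23 in BALB (edgeR adjusted p = 1.49e-06 and 5.34e-07). Myc was among the higher genes, at 1.83 ± 0.18 in B6 and 1.82 ± 0.18 in BALB. The part of sorting in these values was not tested. Nr4a1, an orphan receptor that follows receptor signal strength, was higher in BALB than in B6 DP thymocytes (1.54 ± 0.23, edgeR adjusted p = 0.00143), as was Ier2 (1.18 ± 0.22, edgeR adjusted p = 0.00547). These 2 were the genes of the list called in that comparison, a share near the 13.0% of all genes. Among 13 genes of T cell quiescence and cell cycle control 11 were tested, and 1 was higher and 3 were lower in BALB DP by edgeR, where 6.85% of all genes were higher and 6.14% lower. DESeq2 called 1 higher and 0 lower. The D-type cyclin gene Ccnd3 was the higher one (0.51 ± 0.10, edgeR adjusted p = 0.00660), and the growth inhibitor gene Tsc1 was 1 of the 3 lower by edgeR (−0.43 ± 0.11, edgeR adjusted p = 0.0304).

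The genes whose pattern was most like each member's were taken by Pearson correlation of log2 CPM over the 8 libraries, among 8920 genes with enough counts. The 8 points share 4 groups, so these values describe the pattern over groups and carry no test. Klf13 was most like Phf2 (r = 0.995), Cyfip2 (0.990) and Plxdc1 (0.989). Klf3 was most like Sin3b (0.989), Mtss1 (0.986) and Hsdl1 (0.984). Sin3b is the corepressor scaffold gene named above, and any tie between it and Klf3 was not tested. Klf10 was most like Ccdc88a (0.988), Stt3b (0.982) and Acat2 (0.981), and Klf6 like Dck (0.982), Avl9 (0.982) and Zfp212 (0.977). The values were lower for Klf7, with Otud5 (0.964), Ehmt1 (0.953) and Wdr7 (0.953), and for Klf12, with Zdhhc15 (0.966), Gab3 (0.960) and Fam184a (0.959). Klf4, with few counts, was most like the histone gene Hist1h2bf (0.986), Ubqln2 (0.978) and Agfg2 (0.978).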

How the data were processed

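Per the labels' protocols, total RNA was made into cDNA libraries (TruSeq RNA Sample Prep Kit v2). HISAT2 2.2.0, HTSeq and DESeq2 1.42.1 and the build mm10 are named in the submitters' processing notes. Annotation, strand setting, read length and filters: not given in the sources used here. mm10 is the genome of a B6 mouse, and how BALB alleles aligned to it was not tested. The deposited files hold raw counts per gene symbol. Between 43.3% and 48.9% of the reads in a file were in no gene, and these rows were left out.

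The tests used edgeR 4.0.16 under R 4.3.3 (filterByExpr, 11409 genes kept; trimmed mean of M values; quasi-likelihood test with 1 coefficient per group over all 8 libraries; common coefficient of variation 0.114). The test was checked on simulated data. Adjusted p-values are Benjamini-Hochberg over all tested genes, called under 0.05. CPM and RPKM use the scaled library sizes, and exon lengths are the merged exons of all GENCODE M21 transcripts of a gene. Errors of fold changes are SE, those of levels SD over 2 libraries. No replicate block was used: deviations of libraries with the same number correlated at −0.038 to 0.057. Alternatives used DESeq2 1.42.0, limma 3.58.1 (voom), other filters and scalings, and left-out libraries. The members, lists, comparisons and tests were chosen with earlier results of these data known. Genes outside the set were named by rule: family members that were tested, up to 4 called genes with the smallest p per list and comparison, and the 3 genes most correlated with each member among those with an average log2 CPM of at least 3. Figures used Python 3.11.15 and matplotlib 3.10.9.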

Additional observations from a re-analysis of the deposited data

How the results depend on the processing

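Calls among the members depended on the processing more than their values did, and calls over all genes moved too. In DP thymocytes 1482 of 11409 genes were called between strains, and 2212 of 17434 with no filter. DESeq2's Wald test called 1015, the replicate block 1321 and the fit of only the libraries compared 562 of 10442. In whole thymocytes these numbers were 524, 839, 361, 465 and 1050 of 11199. Between populations in B6 1159 were called, 512 of 7802 with the strict filter and 748 with DESeq2. In BALB over B6 in DP thymocytes the count of higher members was 1, 2 with no filter, where Klf12 passed, and 0 to 1 when a library was left out. The count of lower members was 2, or 1 with DESeq2's Wald test, with the replicate block and with only the libraries compared, and 1 to 2 when a library was left out. In whole thymocytes the count of higher members was 0, or 1 with no filter, 1 with the replicate block, 2 with only the libraries compared and 0 to 2 when a library was left out, and that of lower members was 1, or 0 to 2. For whole over DP thymocytes in B6 the 3 lower members became 1 with the strict filter, 1 with DESeq2 and 0 to 4 when a library was left out. In BALB the 3 became 1 with the strict filter, 1 with DESeq2, 1 with only the libraries compared, and 1 to 5. For the interaction the count of higher members was 0 with all 8 libraries. It changed only without BALB DP replicate 2, where calls over all genes rose too. With a library left out, values that changed sign ranged from −0.052 to 0.12 for Klf7 (strain, whole), from −0.11 to 0.13 for Klf10 and −0.36 to 1.32 for Klf12 (population, B6), and from −0.56 to 1.14 for Klf12 and −0.014 to 0.34 for Klf13 (interaction). None of these was called with all libraries. Of 35 fold changes, all kept direction and call with DESeq2's size factors and 34 with limma-voom. The replicate block otherwise changed the calls of Klf13 (DP strain and BALB population) and Klf12 (whole strain, adjusted p = 0.0416). The strict filter left no value for Klf4 and Klf12. Except where shown, the cause was not tested. With 2 libraries per group, depth limits Klf4, Klf9 and Klf12 most.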

Other observations

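The Sp genes encode the sister family with the same kind of zinc fingers. Sp1, Sp2, Sp3 and Sp4, the broadly expressed members, were all present, at 298 to 352 CPM as group means for Sp1, 63.1 to 81.6 for Sp2, 269 to 384 for Sp3 and 107 to 135 for Sp4. On the scale per length Sp3, at 54.6 to 77.9 RPKM as group means, was the family gene next to Klf13, and Sp1 followed at 36.1 to 42.6. In BALB DP thymocytes the means of Sp3 and Klf13 were close, at 77.9 and 79.1. In BALB DP replicate 1 Sp3, at 83.5, was above Klf13, at 68.8. Among BALB thymocytes, Sp3 was lower in the whole population (−0.51 ± 0.10, edgeR adjusted p = 0.00449), and the other 3 were not called in any comparison by edgeR. Sp6, an epithelial member, was higher in BALB whole thymocytes, with 3 and 0 counts in the DP and 12 and 16 in the whole libraries (edgeR adjusted p = 0.0102). Klf16 was at 7.75 to 10.8 CPM as group means and was not called.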
